A study of Mus musculus with 4 samples.

Results

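Angpt1, Vegfa, Vegfb, Vegfc, Cxcl12, Cxcr4 and Kdr encode 4 secreted growth factors of blood vessels, a secreted chemokine and 2 receptors for such signals. Their levels were read from RNA sequencing of mouse embryonic stem cell derived motor neuron cultures with and without doxycycline. Members were picked by gene name, and each of the 7 names matched 1 row of the 11747 in the table of normalized read counts. They were chosen by name with the differences between cultures with and without doxycycline already known, Angpt1 among them as 1 of the largest falls. The differences of these 7 genes are therefore given as a description, with their spread and without a test of their own.

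The cells with doxycycline came from the A172LoxP line, engineered so that this antibiotic switches on a transgene for a transcription factor, and received 2 µg/mL doxycycline for 2 to 3 days (2 libraries, numbered 2 and 8). The cells without doxycycline were of the same engineered line and received vehicle over that period (2 libraries, numbered 1 and 7). Both groups had first been grown as floating aggregates for 2 days with 0.5 µM retinoic acid, which gives neural cells a spinal character, and 1 µM purmorphamine, an agonist of the Sonic hedgehog pathway. All libraries derive from 1 engineered line, total RNA of the whole culture was used, and no label says whether replicate libraries were grown as different cultures. The p-values below thus reflect spread among these 4 libraries, part or all of which may be technical. The limma test takes that spread partly from the gene's own values and partly from rows at a similar level.

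The libraries held an estimated 22434755 to 30235763 reads. Of the 12 listed motor neuron markers 11 passed the test as lower with doxycycline, where 1.79% of all rows did. These markers were chosen with earlier results of these data known. Libraries 7 and 8 stood above 1 and 2 in the summed level of 8 endoderm markers. This sum was 54140 and 118597 normalized counts in libraries 2 and 8 with doxycycline, against 69287 and 123772 in libraries 1 and 7 without it. Most of it is a single gene, Sparc, at 44539 and 102731 with doxycycline, against 57687 and 107074 without it. None of those 8 markers passed the limma test (0 also at an unadjusted p under 0.05). Nor did any of 6 listed pluripotency markers (0 likewise), which summed to 2106 and 1558 with doxycycline, against 2507 and 1817 without it. Over all 11747 rows, 2474 had an unadjusted p under 0.05 in that test. A row is in the table only where at least 1 library had at least 101 estimated reads, so a gene that is not listed is not shown to be absent.

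Vegf proteins are secreted dimers that bind receptor tyrosine kinases on endothelial cells, the cells that line vessels, and the developing neural tube is known as a source of Vegfa that draws vessels in. Angiopoietins act on the receptor Tek of the same cells, with Angpt1 as the activating ligand that stabilises vessels. Cxcl12 is a chemokine that signals through the G protein coupled receptor Cxcr4 and is also bound by Cxcr7 (now named Ackr3), which removes it. In mouse embryos Cxcl12 and Cxcr4 are known to guide the ventral exit of motor axons from the spinal cord.

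Upstream sequence of 5 of the genes is shown because 3 of them were lower and 2 higher with doxycycline. RefSeq starts were found for 6 of the 7 genes, all but Angpt1. Each line gives the 250 bases before the first listed start on build GRCm38.p6, read 5′ to 3′ on the gene's own strand. Capitals mark TAAT or its reverse complement ATTA, the core that many homeodomain factors bind.
Kdr, chr5:75978456-75978705, - strand: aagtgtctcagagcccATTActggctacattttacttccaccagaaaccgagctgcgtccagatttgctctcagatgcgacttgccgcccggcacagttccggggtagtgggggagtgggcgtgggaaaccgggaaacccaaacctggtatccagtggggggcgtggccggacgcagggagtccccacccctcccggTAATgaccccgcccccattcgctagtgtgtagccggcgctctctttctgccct
Cxcl12, chr6:117168285-117168534, + strand: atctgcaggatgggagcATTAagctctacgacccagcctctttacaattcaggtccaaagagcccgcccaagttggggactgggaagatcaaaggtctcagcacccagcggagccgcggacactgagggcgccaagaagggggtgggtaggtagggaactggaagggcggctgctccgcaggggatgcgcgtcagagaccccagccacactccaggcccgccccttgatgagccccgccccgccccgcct
Cxcr4, chr1:128592300-128592549, - strand: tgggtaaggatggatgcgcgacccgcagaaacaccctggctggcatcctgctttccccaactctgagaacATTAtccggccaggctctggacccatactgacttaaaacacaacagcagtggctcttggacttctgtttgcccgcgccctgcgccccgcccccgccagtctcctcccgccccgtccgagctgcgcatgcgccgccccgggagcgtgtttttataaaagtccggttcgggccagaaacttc
Vegfa, chr17:46032378-46032627, - strand: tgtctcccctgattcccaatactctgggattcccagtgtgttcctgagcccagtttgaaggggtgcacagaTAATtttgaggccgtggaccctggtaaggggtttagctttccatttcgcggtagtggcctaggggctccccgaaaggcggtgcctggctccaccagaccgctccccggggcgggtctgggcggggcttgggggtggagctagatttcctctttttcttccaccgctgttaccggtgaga
Vegfb, chr19:6987652-6987901, - strand: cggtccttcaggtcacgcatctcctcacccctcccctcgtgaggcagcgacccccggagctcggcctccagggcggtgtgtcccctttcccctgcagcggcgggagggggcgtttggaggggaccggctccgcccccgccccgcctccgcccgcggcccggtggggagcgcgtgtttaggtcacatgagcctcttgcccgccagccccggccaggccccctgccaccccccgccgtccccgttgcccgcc

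The TAAT core was matched on either strand. Kdr had 2 matches, with first bases at positions -234 and -53 from the start, Cxcl12 had 1 at -233 and Cxcr4 had 1 at -180. Vegfa had 1 at -179, and neither Vegfb nor Vegfc had one. Over all RefSeq windows of the same length, 54.9% of 32841 held the core, so its presence does not set these genes apart. The GC box, GGGCGG or CCGCCC, was found in all 6 genes and in 32.7% of all windows. The hypoxia response core, ACGTG or CACGT, was found in none of these windows at the first listed starts and in 16.6% of all windows. Vegfa has a further listed start, whose window held 1 such match at -211. That window, chr17:46025164-46025413 on the - strand, lies downstream of the first start, so the match is not in sequence before the gene's first start. The share of G and C was 59.2% for Vegfa, 61.2% for Cxcr4, 61.6% for Kdr, 64.4% for Cxcl12, 71.6% for Vegfc and 76.4% for Vegfb, against a median of 52.4% over all windows.

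In all 7 genes both libraries with doxycycline lay on the same side of both libraries without it, which was also true of 53.2% of all rows. Angpt1, Cxcl12, Cxcr4 and Kdr, 4 genes, were lower with doxycycline without overlap, as were 26.5% of all rows, and the 3 Vegf ligands were higher without overlap, as were 26.7% of all rows. Of the 7 genes 1, Angpt1, was among the rows that passed the limma test (adjusted p under 0.05, Benjamini-Hochberg over all rows), where 2.37% of all rows passed and 1.79% passed as lower. Since the genes were chosen with these values known, nothing is read from those counts. With 2 libraries per group an exact permutation test of a single gene cannot go below p = 0.33.

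**Figure D1:**
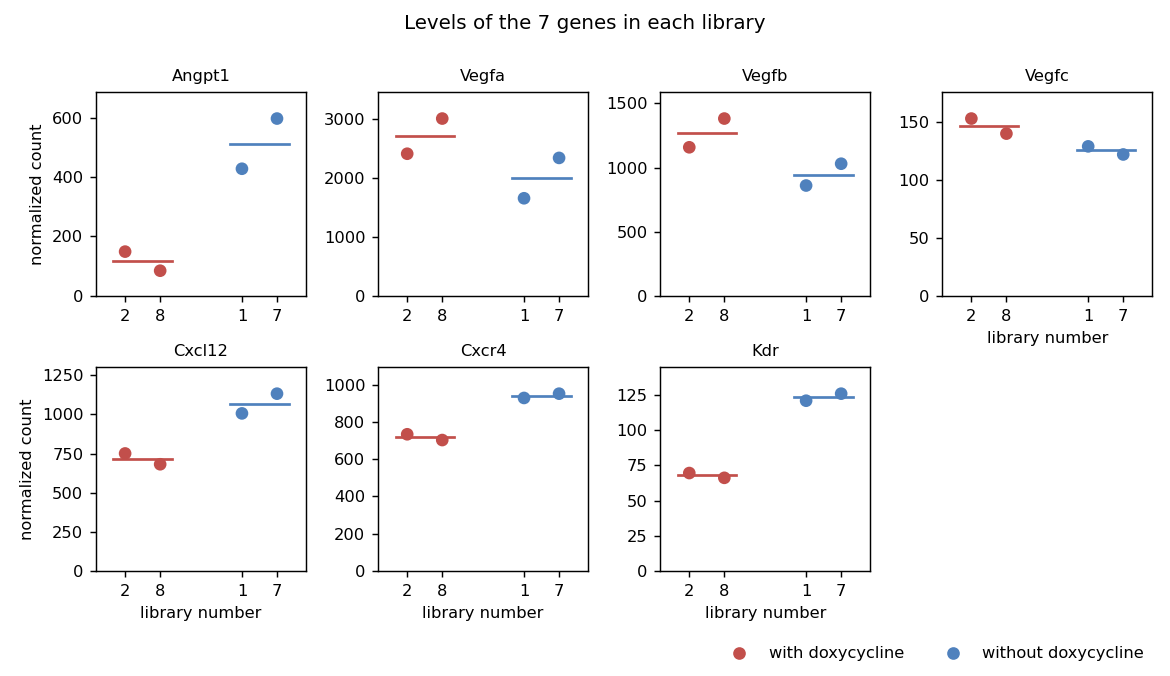
Normalized count (vertical axes, linear, from 0) of each of the 7 genes in the 4 libraries, with doxycycline on the left in red and without it on the right in blue; each point is 1 library and each line the mean of 2. Angpt1 is at 149 and 84.7 with doxycycline, against 428 and 597 without it, while the 3 Vegf ligands are higher with doxycycline in both libraries.

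Angpt1 was the gene whose level differed most. It was at 149 and 84.7 normalized counts in libraries 2 and 8 with doxycycline, against 428 and 597 in libraries 1 and 7 without it. The highest library with doxycycline was below the lowest without it, and within each group the libraries were less alike than for any other of the 7 genes on the log2 scale (pooled SD 0.47). Means were 117 ± 45.2 with and 513 ± 119 without doxycycline (SD, n = 2 each), 4.40 times higher without it. The log2 difference, taken as log2(normalized count + 1) with minus without doxycycline, was -2.16 ± 0.30 (SE), the 12th lowest of all rows. Here and below the SE is limma's moderated one, drawn toward the spread of rows at a similar level. It is therefore not the gene's own spread alone, and for Angpt1 it is smaller than the pooled SD of 0.47. Library 2 minus library 1 gave -1.52 and library 8 minus library 7 gave -2.80. The values rest on 126 and 96 estimated reads with doxycycline, against 479 and 556 without it. Without library 8 the difference was -1.76 and no longer among the rows that passed, and without library 2, 1 or 7 it stayed among them. It was also not among them when limma was run without its intensity trend.

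Angpt2, which competes with Angpt1 for Tek and can act as its antagonist, had 88.4 and 62.6 normalized counts with doxycycline, against 153 and 111 without it. The test was not passed (log2 difference -0.80 ± 0.28; limma, adjusted p = 0.192). With an estimated 75 and 71 reads with doxycycline, against 171 and 103 without it, Angpt2 reached the table's minimum only through the libraries without doxycycline, which favours lower values with it and bears on the ratios to Angpt1 below. Tek, the receptor of both, had 160 and 239 normalized counts with doxycycline, against 202 and 261 without it, and the groups overlapped (log2 difference -0.23 ± 0.24). Per kilobase of transcript, Angpt1 stood at 1.40 and 1.13 times Angpt2 in libraries 2 and 8 with doxycycline, against 2.34 and 4.51 times in libraries 1 and 7 without it. Against Tek the ratio was 1.01 and 0.387 with doxycycline, and 2.32 and 2.50 without it. Of the 21 other genes fixed for the angiopoietin and Tie pathway 13 were listed. None passed the limma test (3 had an unadjusted p under 0.05, as had 2474 of all 11747 rows). The median log2 difference of the 13 was 0.05, against 0.00 over all rows. Itgb1 and Itgav, integrin subunits that can bind angiopoietins, had log2 differences of -0.06 ± 0.06 and 0.42 ± 0.11.

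Vegfa, the main Vegf ligand and a classical target of hypoxia signalling, was at 2416 and 3014 normalized counts in libraries 2 and 8 with doxycycline, against 1659 and 2345 in libraries 1 and 7 without it. The groups did not overlap, but library 7 was only a little under library 2, and library 1 stood lowest. Its means were 2715 ± 423 with and 2002 ± 485 without doxycycline (SD, n = 2 each), a log2 difference of 0.45 ± 0.19. Without library 1 that difference was 0.20 and without library 7 it was 0.70. The row joins 6 RefSeq transcripts, so the Vegfa isoforms, which differ in how they bind heparan sulfate, were not told apart.

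Vegfb, a ligand of Flt1, was at 1158 and 1382 normalized counts with doxycycline, against 860 and 1030 without it. All 4 libraries kept the groups apart, and both numbered pairs differed alike (log2 difference 0.43 for library 2 minus 1 and 0.42 for 8 minus 7). Its log2 difference was 0.43 ± 0.13. Vegfc, the ligand of Flt4 known for lymphatic vessels, was low, at 153 and 140 normalized counts with doxycycline, against 129 and 122 without it. That is a log2 difference of 0.22 ± 0.17 on 130 and 159 estimated reads with doxycycline, against 144 and 114 without it. Pgf, a further ligand of Flt1, overlapped between groups, with 174 and 177 normalized counts with doxycycline, against 136 and 189 without it.

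The balance between the ligands was much the same in all libraries. Per kilobase of transcript, Vegfa made up 39.4% and 41.2% of the summed Vegfa, Vegfb, Vegfc and Pgf level in libraries 2 and 8 with doxycycline, against 37.3% and 41.1% in libraries 1 and 7 without it. Vegfb made up 50.9% in both libraries with doxycycline, against 52.0% and 48.6% without it. The shares of both ligands overlapped between groups. Per kilobase of coding sequence Vegfa held 46.6% and 48.6% with doxycycline, against 44.3% and 48.1% without it, so the larger of the 2 ligands depends on the length used.

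Kdr, the main signalling receptor for Vegfa, was at 69.6 and 66.2 normalized counts with doxycycline, against 121 and 126 without it. Libraries of a group were close and the groups far apart, with means of 67.9 ± 2.40 with and 123 ± 3.51 without doxycycline (SD, n = 2 each). Its log2 difference was -0.85 ± 0.21, and it rests on few reads, an estimated 59 and 75 with doxycycline, against 135 and 117 without it. With 2 libraries per group and so few reads, the closeness within groups is not a measure of precision. Kdr thus reached the table's minimum only through the libraries without doxycycline, so a difference of this sign was favoured by the listing itself. Flt1, which binds Vegfa, Vegfb and Pgf, followed the library numbers rather than the treatment, at 421 and 643 normalized counts in libraries 2 and 8 with doxycycline, against 407 and 724 in libraries 1 and 7 without it. Flt4 had 179 and 143 with doxycycline, against 181 and 192 without it. Vegfa stood at 59.6 and 78.2 times Kdr per kilobase of transcript with doxycycline, against 23.6 and 32.0 times without it.

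Neuropilins are co-receptors for Vegf that also receive semaphorins in growing axons. Nrp2 fell to 1484 and 1330 normalized counts with doxycycline, against 2139 and 2275 without it, a log2 difference of -0.65 ± 0.09 (limma, adjusted p = 0.0301). The row that joins Nrp1 with the microRNA gene Mir1903 was at 1276 and 841 normalized counts with doxycycline, against 2928 and 2151 without it, apart but short of the threshold (log2 difference -1.28 ± 0.23; limma, adjusted p = 0.0553). Of the 21 other genes fixed for Vegf ligands, receptors and co-receptors 18 were listed, and Nrp2 was the 1 that passed, with a median log2 difference of -0.03 over the 18. Its call was lost without library 2 or 8.

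**Figure D2:**
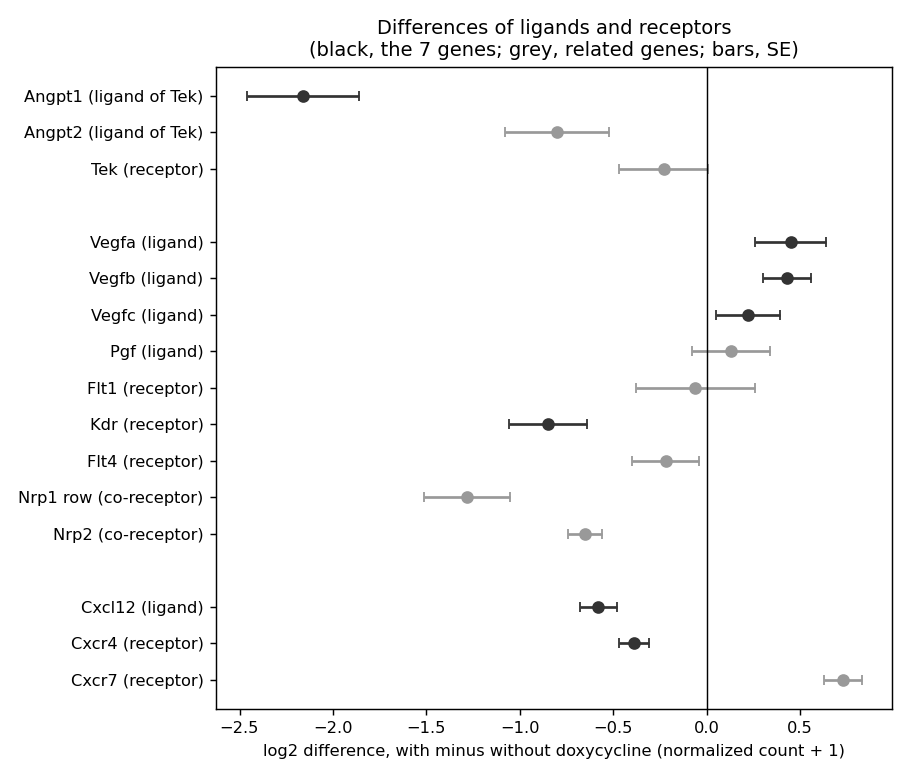
Log2 difference, with minus without doxycycline, of log2(normalized count + 1) on the horizontal axis, with bars of 1 SE, for the 7 genes in black and related ligands, receptors and co-receptors in grey. Angpt1 lies at -2.16 and Kdr at -0.85, the Vegf ligands lie between 0.13 and 0.45, and Cxcl12 (-0.58) and Cxcr4 (-0.39) lie opposite Cxcr7 (0.73).

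Cxcl12 was at 751 and 682 normalized counts in libraries 2 and 8 with doxycycline, against 1007 and 1133 in libraries 1 and 7 without it. The groups were apart by far more than the gap between libraries of a group, with means of 716 ± 48.9 with and 1070 ± 88.8 without doxycycline (SD, n = 2 each) and a log2 difference of -0.58 ± 0.10. Its row joins 3 RefSeq transcripts, which were not told apart. Cxcr4 was at 734 and 703 normalized counts with doxycycline, against 929 and 952 without it, which is a log2 difference of -0.39 ± 0.08. Ligand and receptor were thus both lower with doxycycline, Cxcl12 at 0.670 times and Cxcr4 at 0.764 times its mean without it.

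Cxcr7, the receptor that takes up Cxcl12 and signals through beta-arrestin, went the other way. It rose to 1662 and 1749 normalized counts with doxycycline, against 941 and 1120 without it, a log2 difference of 0.73 ± 0.10 (limma, adjusted p = 0.0355). Per kilobase of transcript Cxcr7 stood at 1.33 and 1.47 times Cxcr4 with doxycycline, against 0.597 and 0.692 times without it. Per kilobase of coding sequence the ratios were 2.24 and 2.47 with doxycycline, against 1.01 and 1.17 without it, so the groups were apart on both lengths while the order of the 2 receptors without doxycycline depended on the length. The Cxcr7 call was lost without library 2, 8 or 1.

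Of the 25 other genes fixed for Cxcl12 receptors and G protein signalling 19 were listed, and 1 rose, Cxcr7, where 0.579% of all rows passed as higher. A further 2 fell. Gng2, a G protein gamma subunit, was at 4759 and 3745 normalized counts with doxycycline, against 7367 and 6805 without it, with a log2 difference of -0.75 ± 0.12 (limma, adjusted p = 0.0458). Rgs3, which shortens G protein signals, was at 704 and 717 with doxycycline, against 1013 and 1028 without it, with a log2 difference of -0.52 ± 0.08 (limma, adjusted p = 0.0418). The list's median was -0.05. The call of Gng2 was lost without library 8 or 1 and with quantile normalization, and that of Rgs3 without any 1 of the 4 libraries.

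**Figure D3:**
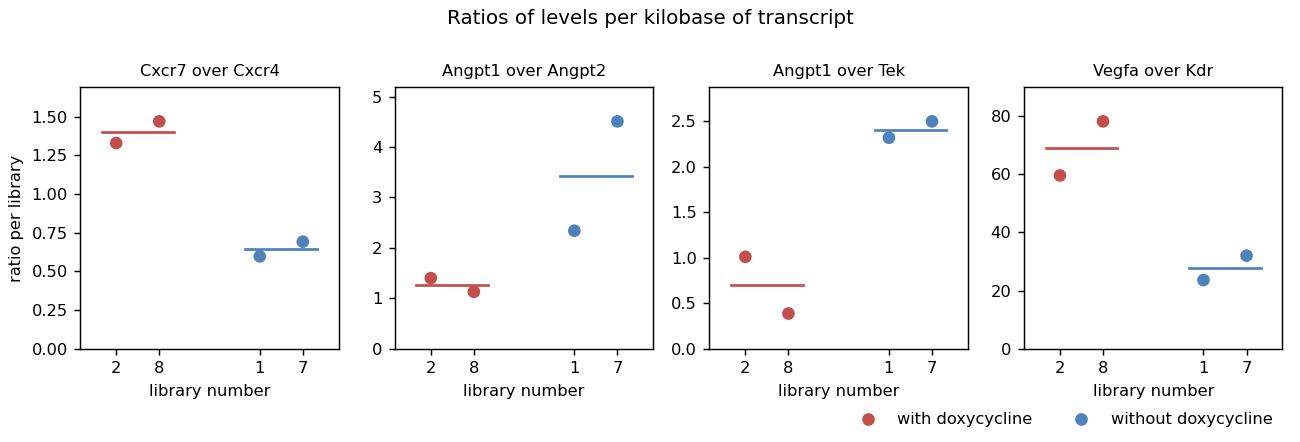
Ratio of levels per kilobase of transcript (vertical axes, linear, from 0) in each library, with doxycycline in red on the left and without it in blue on the right; lines are means of 2 libraries. Cxcr7 over Cxcr4 is 1.33 and 1.47 with doxycycline, against 0.597 and 0.692 without it, and Vegfa over Kdr is 59.6 and 78.2 with doxycycline, against 23.6 and 32.0 without it.

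Levels of the 7 genes were ordered per kilobase of the longest matched transcript. With doxycycline the mean per kilobase was 991 for Vegfb, 787 for Vegfa, 398 for Cxcr4, 127 for Cxcl12, 59.9 for Vegfc, 27.4 for Angpt1 and 11.5 for Kdr. In that order the libraries of neighbouring genes did not overlap. Without doxycycline it was 737 for Vegfb, 580 for Vegfa, 521 for Cxcr4, 190 for Cxcl12, 120 for Angpt1, 51.3 for Vegfc and 20.8 for Kdr. There Vegfa overlapped with both Vegfb and Cxcr4, and the other neighbours did not overlap. Angpt1 and Vegfc changed places, with Angpt1 at 34.9 and 19.9 per kilobase with doxycycline, against 100 and 140 without it, and Vegfc at a mean of 59.9 with doxycycline, against 51.3 without it. The same exchange held per kilobase of coding sequence. The place of Cxcl12 depends on the length, since its longest transcript has 5627 bases but its longest coding sequence 357. Per kilobase of coding sequence it was at 2104 and 1910 with doxycycline, against 2821 and 3173 without it, which overlapped with Vegfa (2054 and 2563) and Vegfb (1864 and 2226) with doxycycline and lay above both without it (Vegfa 1410 and 1994, Vegfb 1384 and 1658).

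Genes around Vegfa were followed through the hypoxia list, in which 27 of 29 genes were listed. None passed the limma test (6 had an unadjusted p under 0.05, as had 2474 of all 11747 rows). Values above 0 were found in 19, against 50.6% of all rows, and the median was 0.10. Hif1a, the oxygen-regulated subunit of the hypoxia factor, was at 3892 and 3448 normalized counts with doxycycline, against 3693 and 3552 without it, and the groups overlapped. The glucose transporter gene Slc2a3 was at 6358 and 5705 with doxycycline, against 4609 and 4186 without it, apart but above the threshold (limma, adjusted p = 0.0583). Ldha and Pdk1, enzymes of the glycolytic response to low oxygen, were like Vegfa lowest in library 1, Ldha at 17465 and 20076 with doxycycline, against 9490 and 17244 in libraries 1 and 7 without it, and Pdk1 at 1075 and 1193 with doxycycline, against 494 and 1070 without it. Ldha and Pdk1 were named after their values were seen, and the list was mixed. Bnip3 and Pgk1 were also lowest in library 1, whereas Epas1 and P4ha2 were lowest in library 2. Whether the low values of library 1 in Ldha and Pdk1 bear on the Vegfa difference was not tested. Of 30 other secreted angiogenic factors 22 were listed, and Slit2, an axon guidance protein that also acts on vessels, was the 1 that passed, at 7352 and 5220 with doxycycline, against 15597 and 14975 without it (limma, adjusted p = 0.0242), a call that stood whichever library was left out. Slit2 is also in the motor neuron list. Their median was 0.14. The 5 pathway lists together, less the 7 genes, had 98 listed genes, of which 1 rose and 4 fell, 5.10% where 2.37% of all rows passed. Since the lists were chosen with earlier results of these data known, nothing is read from that share. Without limma's intensity trend 0 of the 98 passed (28 at an unadjusted p under 0.05, a count not taken over all rows of that fit).

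Markers of other cells were read beside these values. Of 25 endothelial markers 8 were listed, and their sum was 2960 and 5228 normalized counts with doxycycline, against 4175 and 5285 without it, with overlap. Pecam1, Emcn, Erg, Tie1 and Cldn5, which define endothelial cells, were not listed. None of the 8 passed the limma test (2 had an unadjusted p under 0.05, as had 2474 of all 11747 rows). Of the 8 markers 7 had log2 differences below 0, and the median over the 8 was -0.26, but Kdr is itself 1 of them. Of the 7 others 6 were below 0, with a median of -0.23, and 1 had an unadjusted p under 0.05. Over all rows 50.6% were above 0. Without library 8 Sox7 passed as lower, and without the intensity trend Kdr did. Much of the sum is Sox7, at 887 and 2050 with doxycycline, against 1794 and 2057 without it, and Sox17, at 498 and 1054 with doxycycline, against 576 and 914 without it, and Sox17 is also in the endoderm list. Whether the 7 other markers bear on the lower Kdr values was not tested. Cdh5, the cadherin of endothelial junctions, was at 261 and 335 with doxycycline, against 469 and 504 without it, apart between groups as Kdr was (log2 difference -0.72 ± 0.15, limma adjusted p = 0.0789). Cdh5 was named for the smallest p of this list, which was mixed. Of the 7 markers other than Kdr 2 were apart, against 53.2% of all rows. Egfl7 lay above 0 with overlap, at 573 and 741 with doxycycline, against 492 and 579 without it. Of 14 mural and fibroblast markers, which mark the cells that usually supply Angpt1 to vessels, 8 were listed with a summed level of 7693 and 7181 with doxycycline, against 7613 and 7822 without it, and none passed the limma test (2 had an unadjusted p under 0.05). Runx1 was the 1 listed of 13 blood markers, at 133 and 157 with doxycycline, against 172 and 229 without it.

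Most neuronal markers were, like the 4 lower genes, lower with doxycycline. Of 13 motor neuron markers 12 were listed, of which 11 fell, where 1.79% of all rows passed as lower. The marker lists were chosen with earlier results of these data known, so nothing is read from their counts. The sum of the 12 was 18662 and 14461 normalized counts with doxycycline, against 40663 and 37794 without it. Most of that sum is Slit2 and Slit3. Slit2 was at 7352 and 5220 with doxycycline, against 15597 and 14975 without it, and Slit3 at 3935 and 3023, against 7326 and 6396. The median log2 difference of the 12 was -1.51. Lhx3, the 1 marker above 0, was at 1819 and 1546 with doxycycline, against 1352 and 974 without it. Its groups did not overlap, and it did not pass (log2 difference 0.55 ± 0.17, limma adjusted p = 0.155). With libraries paired by column number, which is not shown to pair cultures, Lhx3 passed as higher. Slc18a3, the vesicular acetylcholine transporter gene, had a log2 difference of -1.63 ± 0.08 (limma, adjusted p = 0.00661), and Ret, a receptor for glial neurotrophic factors, of -1.51 ± 0.10 (limma, adjusted p = 0.00743). Of 15 neuron markers 14 were listed and 11 fell, with sums of 83347 and 67428 with doxycycline, against 169655 and 150446 without it. Of 13 progenitor markers, all listed, 1 rose, the glutamate transporter gene Slc1a3, and the median was 0.23. Without library 8 the number that fell was 7 for motor neuron markers and 5 for neuron markers, and the Slc1a3 call was lost without any 1 of the 4 libraries. Without limma's intensity trend 6 motor neuron and 4 neuron markers fell. The part of these changes in the lower values of Angpt1, Cxcl12, Cxcr4 and Kdr was not tested, and in RNA of whole cultures fewer cells of a type cannot be told apart from less RNA per cell.

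**Figure D4:**
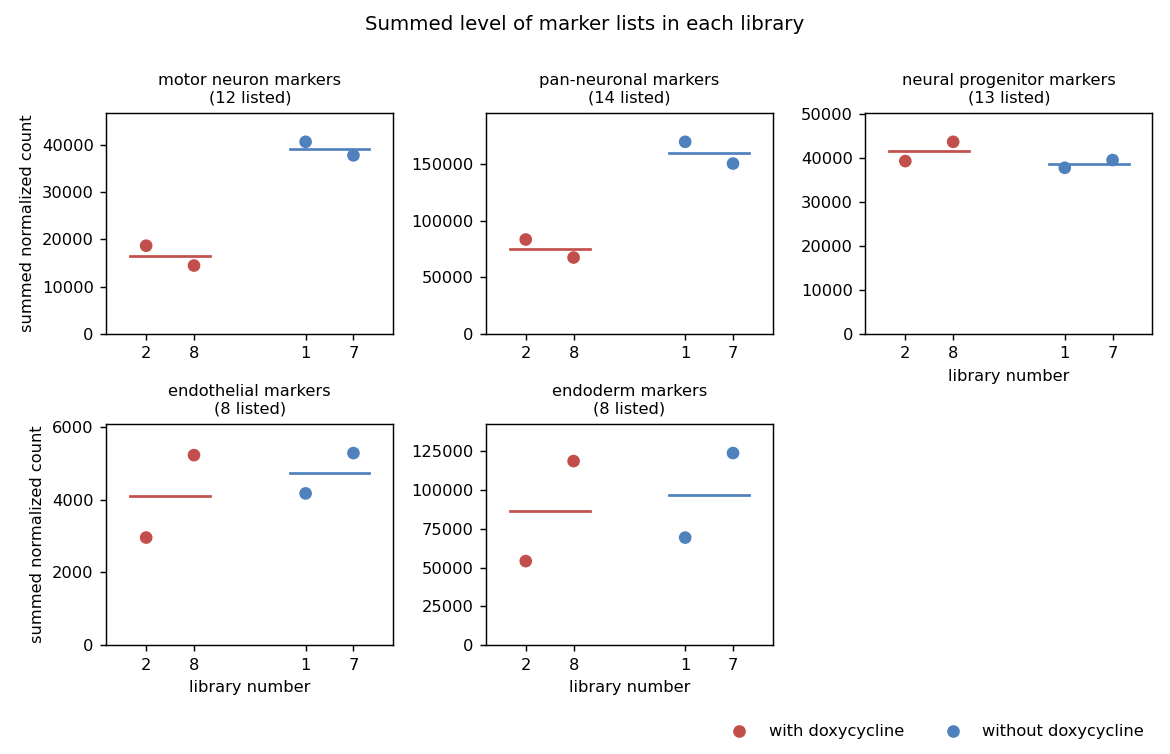
Summed normalized count (vertical axes, linear, from 0) of the listed genes of 5 marker lists in each library, with doxycycline in red on the left and without it in blue on the right; lines are means of 2 libraries. Motor neuron markers sum to 18662 and 14461 with doxycycline, against 40663 and 37794 without it, while the endothelial and endoderm sums overlap and are higher in libraries 7 and 8. Most of the endoderm sum is Sparc, and most of the motor neuron sum is Slit2 and Slit3.

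The rows most like each gene were found by the Euclidean distance between log2 profiles over the 4 libraries, each centred on its mean, among 11606 rows with a single symbol and a mean of at least 50. For Angpt1 the 5 nearest were Tmem132d (distance 0.310), the LIM-only factor gene Lmo1 (0.433), the motor neuron transcription factor gene Isl1 (0.443), Stk32a (0.466) and the motor neuron transcription factor gene Mnx1 (0.511). No row came within 0.2 of Angpt1. Only a row with a fall of similar size can lie near it, and few rows have one. Mnx1, Angpt1 and Isl1 ranked 11, 12 and 15 from the lowest difference. Their nearness thus largely restates the size of a fall already known when Angpt1 was chosen. Tmem132d had 66.0 and 44.1 normalized counts with doxycycline, against 249 and 273 without it. Lmo1 had 83.7 and 48.5 with doxycycline, against 270 and 252 without it. Both reached the table's minimum only through the libraries without doxycycline, so the listing itself favoured lower values with it. Isl1 had 739 and 437 normalized counts with doxycycline, against 2331 and 2183 without it, and Mnx1 had 397 and 292 with doxycycline, against 1658 and 1500 without it. Tmem132d was, like Angpt1, higher in library 7 than in library 1, and the other 4 neighbours were lower there.

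**Figure D5:**
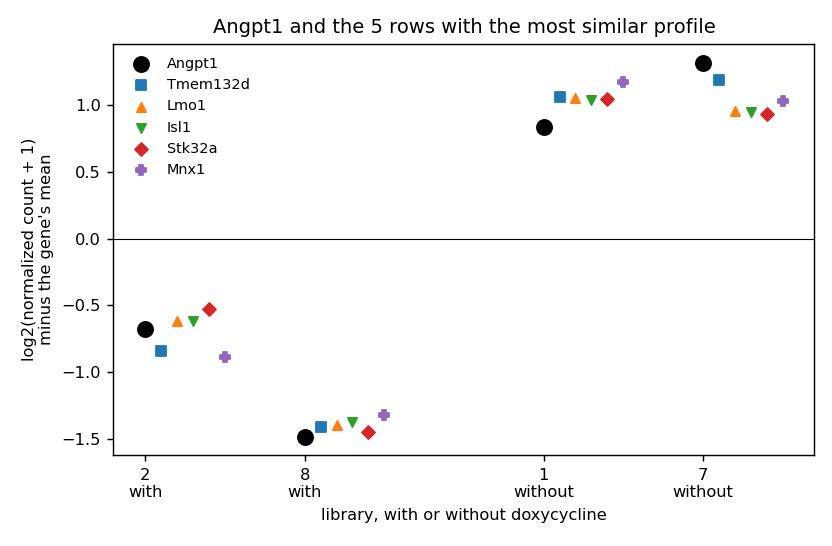
Log2(normalized count + 1) minus the gene's own mean (vertical axis) of Angpt1 and its 5 nearest rows in the 4 libraries, with doxycycline on the left; points are shifted sideways so as not to overlap. In all 6 genes both libraries with doxycycline lie below 0 and library 8 lies lowest; Angpt1 and Tmem132d are higher in library 7 than in library 1, and the other 4 are lower there.

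The other genes had close neighbours. Kdr was nearest to Ablim1, an actin-binding protein gene, at 0.057, and to Slc45a1 at 0.073. Cxcl12 was nearest to Camk1g at 0.088, and Nrp2 was the fourth nearest at 0.094. Cxcr4 was nearest to Fdft1, the squalene synthase gene, at 0.021. Vegfa was nearest to Sorbs3 and Pls3, both at 0.030, Vegfb to Btg3 at 0.024 and Vegfc to Mrps31 at 0.014. Within 0.2 there were 2034 rows for Vegfc, 654 for Cxcr4, 391 for Vegfb, 117 for Vegfa, 70 for Cxcl12 and 46 for Kdr, so with 4 libraries a near profile is common for genes that differ little.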

How the data were processed

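Total RNA libraries were prepared by the TruSeq protocol of Illumina and run on a HiSeq, per the labels' protocols. Per the submitters' processing notes the tools were CASAVA, TopHat2, HTSeq and DESeq with build mm9; versions, settings and strand use are not given in the sources used here. The deposited signal is a normalized read count per gene that the authors made, as far as the values show, by dividing counts by 1 size factor per library. Each column has a step, the value of 1 read, and 100.0% of its values come within 0.1 read of whole multiples (1.18, 0.882, 0.894 and 1.07 in libraries 2, 8, 1 and 7), from which reads were estimated; these are estimates used to show depth, the tests reported use the normalized values, and read numbers describe counting error only.

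Column initials gave each library's group, and column numbers are not the labels' replicate numbers. Libraries of a group were distinct (chi-square per degree of freedom 28.3 with and 26.4 without doxycycline). Symbols came from the table for 11335 rows and by RefSeq accession (GRCm38) for 403, and 9 had none.

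Rows were tested as log2(normalized count + 1) with limma 3.58.1 in R 4.3.3 (intensity trend, two-sided, Benjamini-Hochberg over 11747 rows, threshold 0.05; a row mean of at least 10 removed none). Residual degrees of freedom were 2, prior ones 3.83, and the median moderated standard error 0.0982. It was tested on simulated data. The settings varied were the pseudocount (0.5 or 5), the filter (none, or row means from 50 up), quantile and TMM scaling (trims 0.3 and 0.05), no trend, robust empirical Bayes, each library left out and a pairing by column number. Members and gene lists were chosen with earlier results of these data known. Named genes are the 7, up to 3 per list with the smallest p, the 5 nearest profiles per gene, and others named as receptors, ligands or markers after their values were seen. Transcript and coding lengths are from GENCODE M21, the longest among a row's accessions. Software: Python 3.11.15 with numpy 2.4.6, pandas 2.3.3 and, for plots, matplotlib 3.10.9.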

Additional observations from a re-analysis of the deposited data

How the results depend on the processing

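All 7 genes kept their direction under the 13 alternatives. Leaving out 1 library gave log2 differences of -2.56 to -1.76 for Angpt1, 0.20 to 0.70 for Vegfa, 0.30 to 0.56 for Vegfb, 0.16 to 0.29 for Vegfc, -0.66 to -0.49 for Cxcl12, -0.42 to -0.36 for Cxcr4 and -0.89 to -0.81 for Kdr. Kdr moved to -0.92 with quantile normalization, past its spread between libraries. That spread was small (pooled SD 0.05 on the log2 scale) and rests on 2 libraries per group with few reads. The cause of the move was not tested. The number of rows called was 278, but 105 without the intensity trend, 419 with robust empirical Bayes and 44 to 494 with 1 library left out. Of the 7 genes Angpt1 was the 1 called; without the trend it was Kdr instead, with robust empirical Bayes Angpt1 and Cxcl12, without library 8 none, without library 7 Angpt1 and Vegfa, and in the other alternatives but the block Angpt1. Called pathway genes other than the 7 numbered 5, but 0 in limma without the trend (28 at an unadjusted p under 0.05) and 1 to 13 with 1 library left out; the cause was not tested. In a fit that leaves out a library, the lone library of its group is assumed to vary like the others. With libraries paired by column number (2 with 1, 8 with 7; correlation of deviations 0.63), the replicate block gave 3508 called rows, 43 called pathway genes and calls for 6 of the 7 genes, all but Vegfc; these numbers are not the labels' replicate numbers, and with 2 pairs they are not shown to pair cultures. Over the 23 genes called beside the 7 among each list's smallest p-values and the nearest profiles, 49 of 299 values lost the call and 0 changed direction. Values of Kdr, Vegfc and Angpt1 with doxycycline rest on under 200 estimated reads per library, which limits their precision.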
